A study of Mus musculus with 11 samples.

Results

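The 7 genes described here encode components of the renin-angiotensin system and a vasopressin receptor: the precursor Agt, the peptidases Ace, Enpep and Anpep, and the receptors Agtr1a, Atp6ap2 and Avpr1a. They were taken as the rows of the count matrix that map to these symbols, 7 of 23507 gene rows, and each symbol matched a single row. Cells came from the stromal vascular fraction (the cells of fat tissue other than adipocytes) of perigonadal white adipose tissue (pgWAT) and were profiled with Smart-seq2, a full-length single-cell protocol that counts reads and not molecules. All mice carried the Tg(Pdgfrb-eGFP) reporter, a green fluorescent label of cells with an active Pdgfrb gene, on a C57BL6/J background, were untreated, were fed chow and were 12 to 20 weeks old. The table held 1177 cells of 3 male mouse ids (1, 4 and 8) on 4 plates and 2084 cells of 4 female ids (2, 3, 5 and 6_7) on 7 plates, and the id 6_7 stands for 2 animals. Cells were gated as CD45-negative, which removes most leukocytes, and then by the reporter, by CD31 (an endothelial surface protein) and on 2 plates by DPP4 (a surface protein of a subset of adipose stem cells), so the share of a class among all cells reflects the sort.

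Angiotensinogen, encoded by Agt, is cleaved by renin to angiotensin I, and angiotensin-converting enzyme, encoded by Ace, trims this peptide to angiotensin II. Glutamyl aminopeptidase (Enpep) and alanyl aminopeptidase (Anpep) shorten angiotensin II further, to smaller peptides. Agtr1a encodes the main receptor through which angiotensin II constricts vessels in the mouse, Atp6ap2 encodes the (pro)renin receptor, which is also an accessory subunit of the vacuolar proton pump, and Avpr1a encodes the vasopressin receptor that acts through calcium. White fat is known as a source of angiotensinogen outside the liver.

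The median cell held 616939 reads in genes and 5219 detected genes. Adipose stem cell (ASC)-like cells, defined by Pdgfra, Col1a1, Dcn and Lum, numbered 2250 (69.0% of all cells) and came from all 7 mouse ids, and the 567 blood endothelial cell (EC)-like cells came from 5. Smaller classes were epithelial-like (19 cells, all of mouse 1), lymphatic EC-like (22), vascular smooth muscle cell (VSMC)-like (41), pericyte-like (60) and macrophage-like (137). Of the pericyte-like cells, 51 were rich in markers of another class: in mice 1 and 2 the EC markers Pecam1, Cdh5, Kdr and Cldn5 summed to 2553 and 7624 CPM (counts scaled to a total of 1000000) in them, against 6079 and 12462 CPM in EC-like cells, while the ASC markers summed to 659 and 209 CPM against 20406 and 26640 CPM in ASC-like cells. Of the macrophage-like cells, 72 were rich in other markers. Ribosomal RNA took between 29.9% and 66.9% of the reads of ASC-like cells, depending on the mouse, so levels are given as CPM of the reads outside ribosomal RNA, from counts summed over the cells of a class in a mouse.

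Which cells carried each gene was asked first. Agtr1a, Enpep, Anpep, Ace and Avpr1a were carried by ASC-like cells and were low or absent in EC-like cells. Pericyte-like cells also carried Agtr1a, Enpep, Anpep and Avpr1a. Ace in pericyte-like and VSMC-like cells together lay below the ASC-like level of the same mouse. Macrophage-like cells also carried Anpep, and the epithelial-like cells of mouse 1 also carried Ace. Atp6ap2 was present in every class with at least 10 cells in a mouse, and Agt was high in the ASC-like cells of males. Agt was at 676, 604 and 196 CPM in the ASC-like cells of the male mice 1, 4 and 8, and at 8.95, 0.981, 16.2 and 0.370 CPM in the female mice 2, 3, 5 and 6_7. All 3 males lay above all 4 females. In mouse 5 the level was 4.33 CPM without the ASC-like cells rich in markers of another class; its ASC-like cells held 230 CPM of the 4 mesothelial markers, against at most 142 CPM in the other mice, and the part of such cells was not tested further. In EC-like cells Agt was at 32.3 and 52.0 CPM in males 1 and 8 and at 16.6, 0 and 4.70 CPM in females 2, 5 and 6_7, and in mice 6_7 and 8 a single cell held over 98% of these reads (99.4% and 98.4%). The level in ASC-like cells of females was thus no higher than in EC-like cells of females 2 and 6_7. The epithelial-like cells of mouse 1 carried 429 CPM of Agt and 1057 CPM of Ace, with 60.3% of the Ace reads in 1 of the 19 cells.

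Among the peptidases, Ace was at 967, 426 and 525 CPM in the ASC-like cells of males 1, 4 and 8 and at 74.3, 107, 50.3 and 63.0 CPM in females 2, 3, 5 and 6_7. In EC-like cells, a class known for Ace in other vascular beds, it stood at 1.68 to 16.8 CPM over 5 mice, below the ASC-like cells of each of them. Enpep was at 82.1 to 203 CPM in ASC-like cells, with a median of 142 CPM over the 7 mice, and at 0.200 to 7.44 CPM in EC-like cells. Pericyte-like cells carried more Enpep, 351 CPM in mouse 1 and 269 CPM in mouse 2, while the VSMC-like cells of mouse 1 had 1.45 CPM. Anpep was at 28.3 to 74.5 CPM in ASC-like cells, 27.3 and 21.4 CPM in pericyte-like cells of mice 1 and 2, 65.8 and 26.5 CPM in macrophage-like cells of mice 1 and 5, and at most 0.732 CPM in EC-like cells.

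Among the receptors, Agtr1a had its highest level in pericyte-like cells, at 355 CPM in mouse 1 and 436 CPM in mouse 2, against 61.1 and 69.4 CPM in the ASC-like cells of the same mice. Over all 7 mice, ASC-like cells held 37.9 to 101 CPM of Agtr1a, the VSMC-like cells of mouse 1 held 44.4 CPM, and EC-like cells held at most 3.90 CPM. Avpr1a was at 13.6 to 132 CPM in ASC-like cells, 27.8 and 52.6 CPM in pericyte-like cells of mice 1 and 2 and 35.6 CPM in the VSMC-like cells of mouse 1. EC-like cells held 7 reads of Avpr1a in all, spread over 3 mice, and macrophage-like cells held none. Atp6ap2 was the most even of the 7 genes, at 70.2 to 92.5 CPM in ASC-like cells and 28.2 to 84.3 CPM in EC-like cells, and was highest in the macrophage-like cells, at 94.5 CPM in mouse 1 and 235 CPM in mouse 5.

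**Figure D1:**
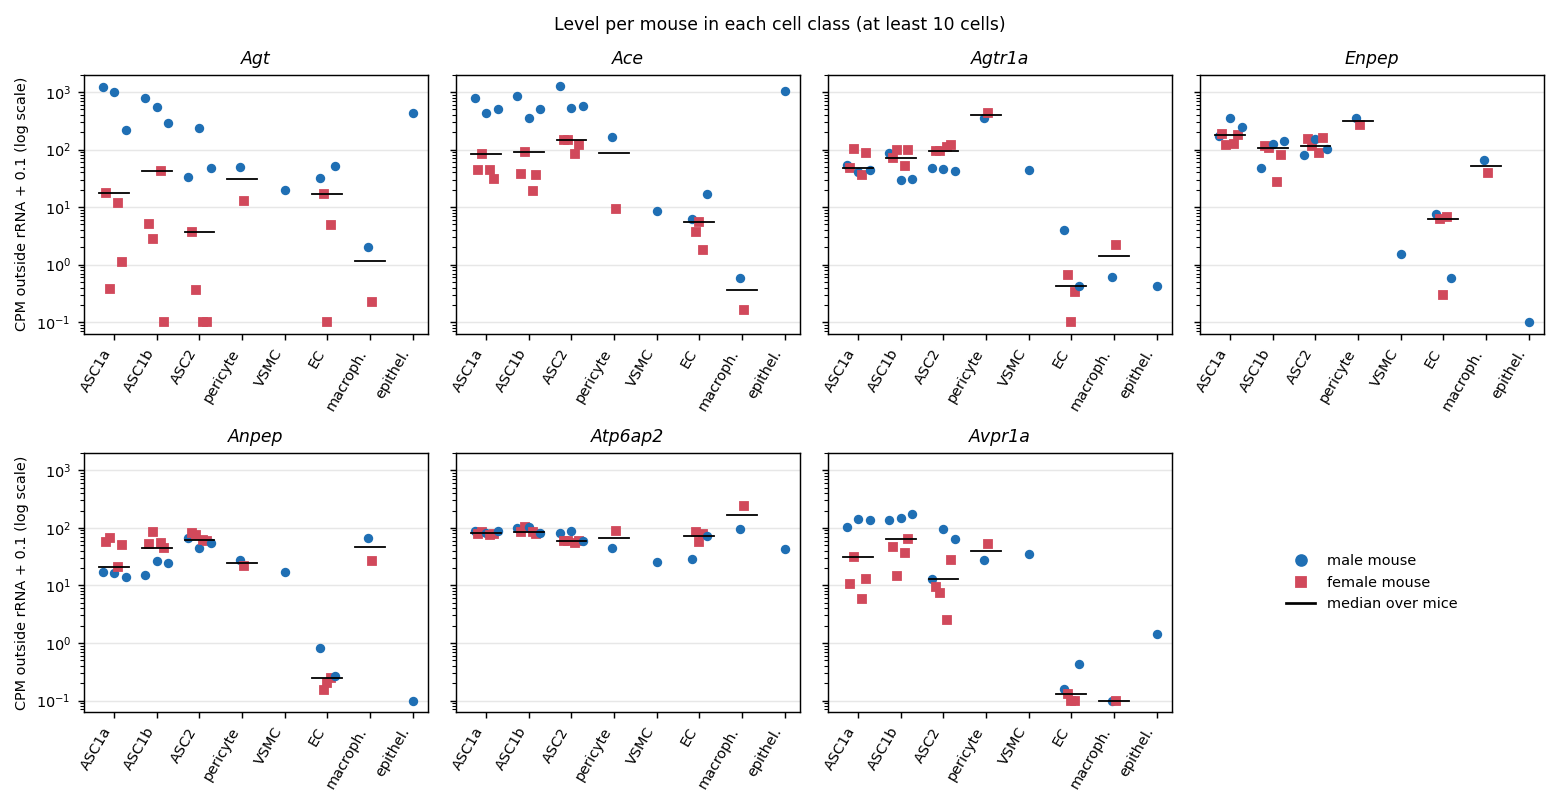
Level of each gene in every cell class, in CPM outside ribosomal RNA plus 0.1 on a log axis, with 1 point per mouse that had at least 10 cells of the class (blue circles, males; red squares, females) and a bar at the median over mice. Agt and Ace separate by sex within each ASC subtype and Avpr1a within ASC1a-like and ASC1b-like cells but not ASC2-like cells, Agtr1a peaks in pericyte-like cells at 355 and 436 CPM, and Atp6ap2 lies between 25.8 and 235 CPM in all classes shown.

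To set the genes against each other, levels in ASC-like cells were divided by exon length. In males the median CPM per kb was 319 for Agt, 99.4 for Ace, 48.6 for Avpr1a, 36.8 for Enpep, 34.3 for Atp6ap2, 14.2 for Agtr1a and 6.89 for Anpep. The ranges over the 3 males overlapped for the neighbours Agt (103 to 357.5) and Ace (80.5 to 183), and for Avpr1a (30.7 to 49.6), Enpep (22.2 to 43.0) and Atp6ap2 (30.0 to 35.3), while Ace lay above Avpr1a, and Agtr1a (13.6 to 21.9) above Anpep (6.85 to 8.17), in all of them. In females the order differed, with 30.1 CPM per kb for Agtr1a, 27.8 for Atp6ap2, 27.2 for Enpep, 13.8 for Anpep, 13.0 for Ace, 7.41 for Avpr1a and 2.62 for Agt. The ranges over the 4 females overlapped for the neighbours Agtr1a (24.4 to 36.3), Atp6ap2 (26.8 to 31.4) and Enpep (17.4 to 32.7), so these 3 had no order beyond the spread between mice. The range of Enpep also overlapped that of Anpep (10.9 to 18.0). The ranges of Anpep, Ace (9.51 to 20.3) and Avpr1a (5.09 to 12.5) overlapped as well, as did those of Avpr1a and Agt (0.196 to 8.55).

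ASC-like and EC-like cells of the same mouse were compared with edgeR in the 5 mice with at least 10 cells of each. Avpr1a, Anpep, Agtr1a, Enpep and Ace were higher in ASC-like cells, whereas Agt and Atp6ap2 did not pass the test. The log2 fold changes were 10.15 (SE 0.66, adjusted p = 6.32e-05) for Avpr1a, which rests on the 7 EC-like reads, 8.24 (SE 0.90, adjusted p = 0.000456) for Anpep, 7.35 (SE 1.02, adjusted p = 0.00144) for Agtr1a, 5.70 (SE 0.86, adjusted p = 0.00221) for Enpep and 5.17 (SE 0.63, adjusted p = 0.000773) for Ace. Agt had 1.92 (SE 1.72, adjusted p = 0.469) and Atp6ap2 0.52 (SE 0.33, adjusted p = 0.298). Calls required an adjusted p below 0.05 together with a fold change above 2.6. Of the 7 genes, 5 were called, all higher in ASC-like cells, beside 22.7% of the 12214 genes tested in either direction and 13.9% in this one. The median log2 fold change was 5.70 over the 7 genes and 0.20 over all genes tested. Genes such as Avpr1a and Anpep passed the count filter only through their ASC-like sums. The members were also chosen with earlier results of these data known, so this count and median are no independent evidence of a direction.

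The comparison with mural-like cells (pericyte-like plus VSMC-like) could use only mice 1 and 2 and had little power: 0 genes of 9701 (0%) were called by the quasi-likelihood fit of edgeR, although 1373 had a raw p below 0.05, while the likelihood ratio test called 1018 and DESeq2 1387. Agtr1a was at 208 and 436 CPM in mural-like cells against 61.1 and 69.4 CPM in ASC-like cells of mice 1 and 2, a log2 fold change of -2.11 (SE 0.48, quasi-likelihood adjusted p = 0.174). Ace was at 90.4 and 9.34 CPM in mural-like against 967 and 74.3 CPM in ASC-like cells, a log2 fold change of 3.30 (SE 0.47, adjusted p = 0.0969). Both genes were called by the likelihood ratio test (adjusted p = 0.0274 and 0.000148) and by DESeq2 (adjusted p = 0.00146 and 1.37e-09), and the other 5 genes by neither.

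Within the ASC-like cells, the subtypes ASC1a-like (800 cells), ASC1b-like (684) and ASC2-like (766) were ranges of a score. The score came from Col15a1, G0s2 and Cxcl14, from Clec11a, Fmo2 and F3, and from Dpp4, Cd55 and Arl4d, none of them a gene described here. Near a boundary lay 480 cells (21.3%). The subtypes took similar numbers of cells within a mouse (120, 122 and 121 in mouse 4, 69, 49 and 43 in mouse 8). A label thus reads as relative to the other cells of the same mouse. The study's own clusters split the males unevenly, with most ASC of mouse 1 in an ASC2 cluster and most of mice 4 and 8 in an ASC1a cluster. ASC2-like cells of mouse 4 and ASC1a-like cells of mouse 1 need not be those subtypes. Agt was lower in ASC2-like cells than in either other subtype, Avpr1a was lower in ASC2-like than in ASC1b-like cells, and Ace was higher in ASC2-like cells by less than the fold limit. Agt was at 1199, 994 and 218 CPM in the ASC1a-like cells of males 1, 4 and 8, at 774, 554 and 289 CPM in their ASC1b-like cells and at 32.9, 240 and 47.5 CPM in their ASC2-like cells. Each male thus had its lowest Agt level in ASC2-like cells. Females held at most 17.4 CPM in ASC1a-like and 3.56 CPM in ASC2-like cells, and 41.5 CPM in the ASC1b-like cells of mouse 5, where 99.7% of the reads came from 1 cell.

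In the fit over all 7 mice, with the mouse as a block, the log2 fold change of Agt in ASC2-like over ASC1a-like cells was -2.91 (SE 0.69, edgeR adjusted p = 0.0101) and over ASC1b-like cells -2.94 (SE 0.71, adjusted p = 0.0134). Agt was the 1 gene of the 7 called against ASC1a-like cells, beside 3.47% of 11137 genes and 1.76% called lower. Avpr1a was called with Agt against ASC1b-like cells, beside 3.11% of genes and 1.86% called lower, at -2.07 (SE 0.45, adjusted p = 0.00677). Avpr1a was at 136, 150 and 174 CPM in the ASC1b-like cells of males 1, 4 and 8 and at 12.7, 95.3 and 65.1 CPM in their ASC2-like cells. In females 2, 3, 5 and 6_7 it was at 47.0, 14.4, 36.6 and 64.4 CPM in ASC1b-like and at 9.09, 7.22, 2.40 and 27.7 CPM in ASC2-like cells, so that all 7 mice had less Avpr1a in ASC2-like cells. Agt lost both calls where classes were taken from the markers of each cell (log2 fold change -2.24, adjusted p = 0.0811, and -1.64, adjusted p = 0.282), and Agt and Avpr1a lost theirs without the block. Avpr1a lost its call without cells near a boundary (-2.15, adjusted p = 0.0991) and with the study's ASC1b markers alone (-1.74, adjusted p = 0.0709).

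Ace was higher in ASC2-like cells in each mouse, at 1253, 522 and 563 CPM in males 1, 4 and 8 and 145, 146, 82.4 and 120 CPM in females 2, 3, 5 and 6_7, against 793, 427 and 514 CPM and 43.3, 82.5, 43.3 and 30.3 CPM in ASC1a-like cells. The log2 fold change was 0.91 (SE 0.23, adjusted p = 0.0159) over ASC1a-like cells and 1.02 (SE 0.23, adjusted p = 0.0088) over ASC1b-like cells, both below the limit on fold. Anpep likewise passed on adjusted p alone, at 1.07 (SE 0.25, adjusted p = 0.00815) over ASC1a-like cells, as did Enpep at -0.71 (SE 0.21, adjusted p = 0.0432) and Atp6ap2 at -0.40 (SE 0.10, adjusted p = 0.0171). Between ASC1b-like and ASC1a-like cells no gene of the 7 was called, beside 0.332% of all genes. Enpep came closest, at -1.13 (SE 0.21, adjusted p = 0.0133), with 347 CPM in ASC1a-like against 122 CPM in ASC1b-like cells of mouse 4 and 124 against 27.6 CPM in mouse 5. It passed both limits at -1.42 (adjusted p = 0.00233) without cells near a boundary. Agtr1a had no difference past the test between any pair of subtypes (adjusted p = 0.888, 0.427 and 0.690).

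The sexes were compared in ASC-like cells over 3 male and 4 female ids. Ace, Avpr1a and Agt were higher in males, and Agtr1a, Enpep, Anpep and Atp6ap2 did not pass the test. On the scale of this test (CPM with TMM factors), Avpr1a was at 44.0, 75.5 and 90.5 CPM in males 1, 4 and 8 and at 11.2, 9.20, 6.31 and 15.6 CPM in females 2, 3, 5 and 6_7. The lowest male lay above the highest female, and the log2 fold change was 2.72 (SE 0.36, edgeR adjusted p = 0.00516). Ace, at 519, 243 and 367 CPM in males and 38.2, 55.4, 23.4 and 29.5 CPM in females, had a log2 fold change of 3.36 (SE 0.39, adjusted p = 0.0022). Agt, at 363, 345 and 137 CPM in males and 4.59, 0.506, 7.51 and 0.174 CPM in females, had the largest and least precise difference of the 7, 6.47 (SE 1.15, adjusted p = 0.0216). Of the 7 genes, 3 were called, all higher in males, beside 1.55% of 11821 genes called in that direction and 2.23% in both; since the genes were chosen with results of these data known, this count is no independent evidence of a direction.

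The call for Agt was lost without female 2 (adjusted p = 0.0507) and without male 4 (adjusted p = 0.0521), while its log2 fold change stayed at 6.71 and 6.30. Calls for Ace and Avpr1a held without any 1 mouse. Each mouse has plates of its own, so mouse, plate and depth cannot be told apart within a sex. The sorts also differed between mice. Only mouse 2 had a DPP4-positive and a DPP4-negative plate, with Ace at 130 and 26.2 CPM and Agt at 2.87 and 14.2 CPM outside ribosomal RNA. The part of the sort, and of the subtype mix it gives, in the sex difference was not tested. The share of ribosomal RNA, 66.9%, 31.7% and 58.5% in males 1, 4 and 8, overlapped that of females, 29.9% to 54.1%, and its part in the sex difference was not tested.

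Agtr1a was at 32.8, 21.6 and 27.5 CPM in males 1, 4 and 8 and at 35.6, 50.9, 31.6 and 47.5 CPM in females 2, 3, 5 and 6_7, and the groups overlapped on this scale (log2 fold change -0.60, SE 0.27, adjusted p = 0.263). Relative to reads outside ribosomal RNA they did not, at 37.9 to 61.1 CPM against 68.1 to 101 CPM, a scale on which 1885 of 11821 genes were higher in every female and 530 in every male. Anpep was at 16.3 to 19.8 CPM in males and 20.8 to 38.5 CPM in females, without overlap (-0.68, SE 0.28, adjusted p = 0.222), and Atp6ap2 at 48.3 to 54.8 CPM in males and 32.6 to 42.5 CPM in females, also without overlap (0.50, SE 0.23, adjusted p = 0.258). On the scale of the test (CPM with TMM factors), 7.9% of genes were higher in every male and 8.26% in every female. The direction of Atp6ap2 turned to -0.13 where library totals alone set the scale, which moved the median of all genes from 0.04 to -0.60. Enpep overlapped, at 56.1 to 121 CPM in males and 38.1 to 79.0 CPM in females (0.68, SE 0.34, adjusted p = 0.308). Whether the sex effect differed between the subtypes was tested as an interaction, and none of the 7 genes passed (smallest adjusted p = 0.383, for Ace), beside 0.0718% of 11137 genes.

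**Figure D2:**
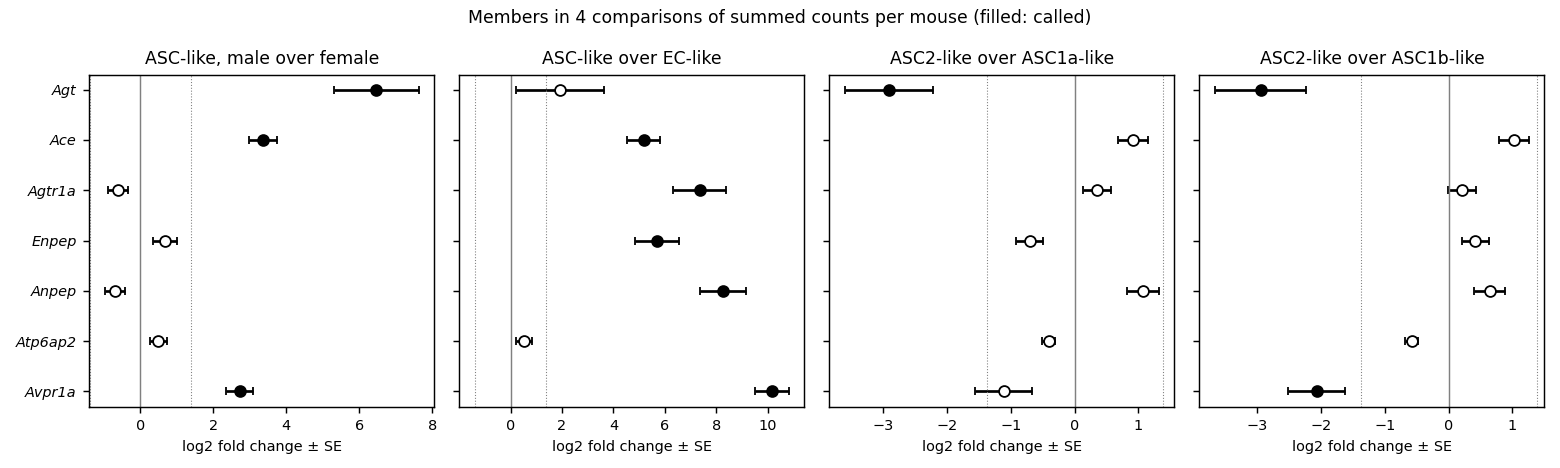
Log2 fold change with its standard error for the 7 genes in 4 comparisons of summed counts: males over females in ASC-like cells, ASC-like over EC-like, ASC2-like over ASC1a-like and ASC2-like over ASC1b-like cells. Filled points were called, dotted lines mark the fold limit of 2.6, and the axes differ between panels. Agt is called higher in males (6.47) and lower in ASC2-like cells (-2.91 and -2.94).

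The 3 genes called between the sexes lie on different chromosomes, and the 250 bases before their RefSeq starts (build GRCm38.p6) are shown because these genes were higher in males together. Capitals mark the letters TATAAA, or TTTATA where they lie on the opposite strand. Agt (ENSMUSG00000031980, minus strand) lies at chr8:124556534-124569706, Ace (ENSMUSG00000020681, plus strand) at chr11:105967945-105989964 and Avpr1a (ENSMUSG00000020123, plus strand) at chr10:122448499-122453452 in GRCm38. The windows, 5′ to 3′ on the strand of the gene, are chr8:124569707-124569956 for Agt, chr11:105967698-105967947 for Ace and chr10:122448249-122448498 for Avpr1a.
Agt: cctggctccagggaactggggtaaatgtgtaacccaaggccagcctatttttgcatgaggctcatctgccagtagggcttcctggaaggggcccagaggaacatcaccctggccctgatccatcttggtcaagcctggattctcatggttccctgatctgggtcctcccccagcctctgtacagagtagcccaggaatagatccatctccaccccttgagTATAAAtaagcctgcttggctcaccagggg
Ace: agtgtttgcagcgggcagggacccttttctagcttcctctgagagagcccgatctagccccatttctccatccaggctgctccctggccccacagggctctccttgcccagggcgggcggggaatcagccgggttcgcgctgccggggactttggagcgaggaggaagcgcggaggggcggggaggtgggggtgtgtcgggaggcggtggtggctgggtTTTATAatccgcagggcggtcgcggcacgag
Avpr1a: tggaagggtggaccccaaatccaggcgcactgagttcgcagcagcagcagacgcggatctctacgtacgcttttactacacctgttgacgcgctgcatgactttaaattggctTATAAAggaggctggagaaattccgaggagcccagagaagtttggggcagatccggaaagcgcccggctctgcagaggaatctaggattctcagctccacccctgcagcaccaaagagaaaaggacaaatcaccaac
The capitals begin 30 bases before the start in Agt, 31 bases in Ace and 137 bases in Avpr1a. The letters TATAAA, on either strand, were found in 12.4% of 32851 promoter windows of this length. The Ace window held GGGCGG (a GC box) at 4 places and had a GC content of 67.2%, against 55.6% for Agt, 53.6% for Avpr1a and a median of 52.4%, and 32.7% of windows held GGGCGG on either strand. None of the 3 windows held AGAACA on either strand, the half-site of the androgen and glucocorticoid receptors, which 16.1% of windows held. A match is a description of letters and not a binding site. Of the other genes, Enpep, Anpep and Atp6ap2 had a window in the table too: that of Enpep held TTTATA 52 bases before the start and that of Atp6ap2 held TGTTCT, the reverse complement of AGAACA, 131 bases before it. Ace had a second RefSeq window, chr11:105974939-105975188, in which the TATA box, GC box and half-site letters were not found on either strand.

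In single cells, thinned to 150000 reads each, Ace was found in 97.1% of male and 59.1% of female ASC-like cells, Agt in 74.3% and 2.43%, and Avpr1a in 54.7% and 9.46%. Anpep and Agtr1a had the opposite order, with 44.0% of male and 76.8% of female cells for Anpep and 35.4% and 50.7% for Agtr1a. The 150000 reads included ribosomal RNA, which took 66.9%, 31.7% and 58.5% of reads in males 1, 4 and 8. In females it took 29.9% to 54.1%. Cells of males 1 and 8 thus kept fewer reads outside ribosomal RNA, and the shares of the sexes are not at equal depth in this sense. Enpep (66.1% and 67.9%) and Atp6ap2 (62.9% and 51.5%) were found at more like shares. In EC-like cells the shares were 5.85% for Agt, 6.03% for Ace, 3.19% for Agtr1a, 4.96% for Enpep, 1.60% for Anpep, 0.709% for Avpr1a and 20.04% for Atp6ap2, and the Agt share of female ASC-like cells lay below that of female EC-like cells (3.34%).

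A single read was a poor mark of expression in some wells. Of the 41 VSMC-like cells, 34.1% had an Ace read after thinning, but 0 had at least 5 (exact 95% binomial interval up to 8.60%), and all 363 ASC-like cells of mouse 4 had an Agt read before thinning, with a median level of 73.7 CPM against 1683 CPM at the 90th percentile. With at least 5 reads required, the shares of male and female ASC-like cells were 92.1% and 38.6% for Ace, 48.4% and 1.76% for Agt and 32.2% and 6.49% for Avpr1a. Agt was uneven among cells: the tenth of male cells with the most reads held 64.7% of all its reads, the median male cell had 40.3 CPM and the highest 6112 CPM. A level of 100 CPM, a limit set after the values were seen, was reached by 38.7% of male and 1.21% of female ASC-like cells for Agt, by 88.4% and 25.8% for Ace and by 29.9% and 5.60% for Avpr1a. For Avpr1a in females, the tenth of cells with the most reads held 99.2% of them.

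**Figure D3:**
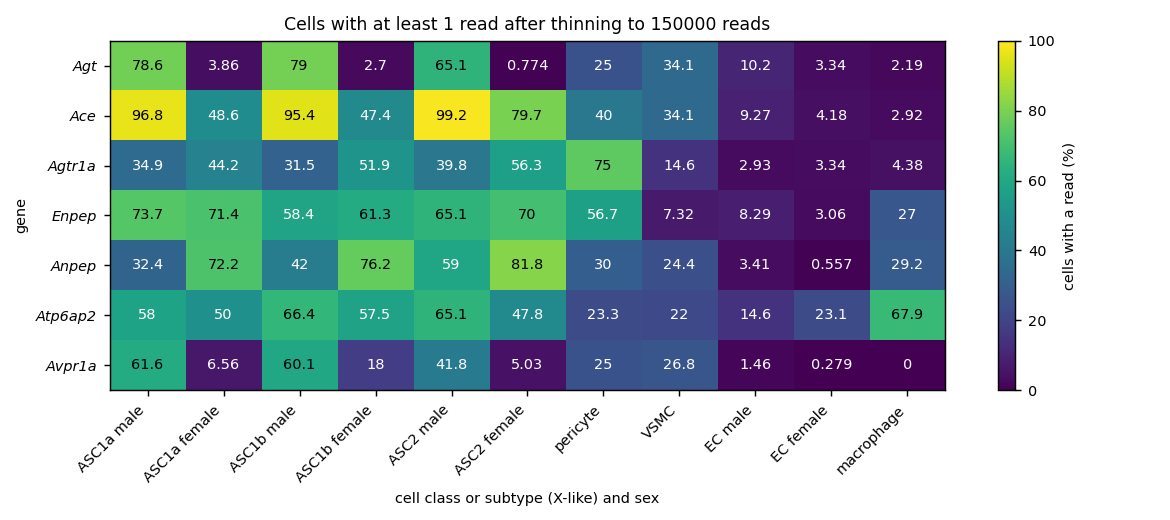
Percent of cells with at least 1 read of each gene after thinning to 150000 reads (ribosomal RNA included), by class or subtype and, where numbers allow, by sex. Darker cells are lower. Ace is found in 95.4% to 99.2% of male cells of the 3 ASC subtypes, Agtr1a in 75.0% of pericyte-like cells and Atp6ap2 in 67.9% of macrophage-like cells.

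Co-detection was read in the 2248 thinned ASC-like cells, against the number of cells that the shares of each gene within each mouse would give. The median cell held reads of 4 of the 7 genes, 21 cells held none, and the most was 7. Agt, Ace and Agtr1a, the precursor, the converting enzyme and the receptor, were found together in 205 cells (9.12%), against 214.6 expected, and 198 of these were among the 768 male cells (25.8%) and 7 among the 1480 female cells. Agt and Ace shared 577 cells against 577.5 expected. With at least 5 reads of each gene, Agt, Ace and Agtr1a were together in 57 cells (2.54%), against 59.7 expected. Of these, 56 were male (7.29% of male cells) and 1 was female. Over both sexes, observed over expected ran from 0.92 (Ace and Avpr1a) to 1.08 (Agtr1a and Avpr1a) among the 21 pairs at 1 read. At 5 reads it ran from 0.82 (Agt and Anpep) to 1.28 (Agt and Avpr1a). The pair counts that follow are at 1 read. Ace and Anpep (1052 cells against 1005 expected) and Agtr1a and Anpep (729 against 701.5) shared more cells than expected in all 7 mice. In 6 of 7 mice this held for Agtr1a and Avpr1a (248 against 229.3), Atp6ap2 and Avpr1a (365 against 341.1), Agt and Enpep (445 against 422.4), Ace and Enpep (1116 against 1085) and Enpep and Anpep (1032 against 1012). A stricter setting required at least 5 reads of each gene, with shares taken within each mouse and subtype. There the excess held in 4 of 7 mice for Agtr1a and Anpep and in 3 of 7 for Enpep and Anpep. For the other pairs just named it held in 6 of 7 mice.

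Ace and Avpr1a stood apart in females. They shared 39 female cells against 81.8 expected, with fewer than expected in all 4 females: 22 against 47.8 in mouse 2, 7 against 12.9 in mouse 3, 0 against 2.83 in mouse 5 and 10 against 18.2 in mouse 6_7. In males the pair shared 416 cells against 410.9 expected. With at least 5 reads of each gene the female count was 4 against 36.0 expected, and 4 against 29.1 where the shares were taken within each mouse and subtype. These counts are descriptions of cells from 4 female ids, with no test.

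**Figure D4:**
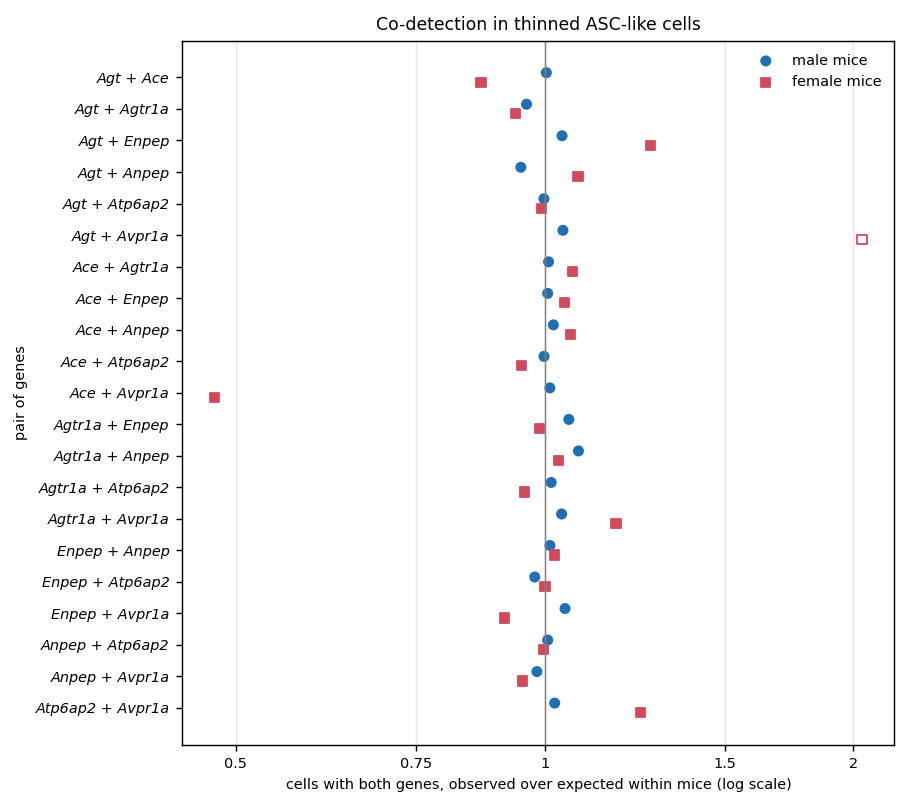
Cells with both genes of a pair, as observed over expected within mice, on a log axis, for each of the 21 pairs in male (blue circles) and female (red squares) ASC-like cells; the open square marks an expected number below 10. Ace and Avpr1a in females lie farthest to the left, at 39 observed against 81.8 expected cells, while most pairs lie near 1.

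The 96 female ASC-like cells with at least 5 Avpr1a reads were set beside the 1384 others. Their Ace level was 6.16 CPM against 82.2 CPM, and it was lower in each female: 7.06 against 81.0 CPM in mouse 2 (57 Avpr1a cells), 5.61 against 111 CPM in mouse 3 (11 cells), 1.07 against 53.4 CPM in mouse 5 (6 cells) and 4.10 against 68.0 CPM in mouse 6_7 (22 cells). Agtr1a went the opposite way, at 113 against 77.4 CPM, and was higher in each female. Of the 96 cells, 65.6% were ASC1b-like and 15.6% ASC2-like, against 27.6% and 36.3% of the others, but mouse 2 gave 57 of the 96. The ASC1b-like share was higher among the Avpr1a cells in mice 2 (75.4% against 27.1%), 5 (66.7% against 28.6%) and 6_7 (59.1% against 26.6%) and not in mouse 3 (27.3% against 29.1%). Their ASC markers summed to 41430 CPM against 26190 CPM and were higher in each female. Pericyte markers summed to 65.5 against 19.1 CPM in mouse 2, 0.267 against 9.11 CPM in mouse 3, 14.5 against 27.15 CPM in mouse 5 and 6.36 against 6.03 CPM in mouse 6_7, and VSMC markers were higher in mice 2, 3 and 6_7 and lower in mouse 5 (319 against 366 CPM). The part of mural RNA in these cells was not tested. Their median depth outside ribosomal RNA was 494130 against 402550.5 reads. In males, the 247 Avpr1a cells held 521 CPM of Ace against 604 CPM in the 521 others, and the Ace level was lower in mouse 1 (734 against 1052 CPM) and higher in mouse 4 (440 against 417 CPM) and mouse 8 (571 against 497 CPM). Agtr1a was higher in the Avpr1a cells of mouse 1 (127.9 against 36.6 CPM) and mouse 8 (59.0 against 27.3 CPM). In mouse 4 it was lower in them (25.2 against 45.8 CPM).

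In mouse 2, ASC-like cells were sorted by DPP4 onto 1 plate each, so the values have no replicate and no test. The DPP4-positive plate held 379 ASC-like cells, 255 of them ASC2-like, and the DPP4-negative plate 368, 5 of them ASC2-like; Dpp4 itself was at 302 against 2.37 CPM. Ace was higher on the DPP4-positive plate, at 130 CPM (95% Poisson interval 129 to 132, counting error only) against 26.2 CPM (25.5 to 26.9), and was found in 82.1% against 36.7% of cells. Agtr1a was at 85.6 against 55.6 CPM, Anpep at 76.6 against 51.2 CPM and Enpep at 163 against 146 CPM. Avpr1a was lower, at 11.7 against 30.4 CPM and in 5.01% against 16.6% of cells, as were Atp6ap2 (61.7 against 85.6 CPM) and Agt (2.87 against 14.2 CPM). The reporter gate of the DPP4-positive plate is uncertain from its column names.

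Of 24 other genes of the renin-angiotensin system, 20 were in the table and 13 were tested between the sexes, of which 0 were called higher in males and 1, Hsd11b2 (the enzyme that inactivates glucocorticoids near the mineralocorticoid receptor), was called lower, at -3.89 (SE 0.76, edgeR adjusted p = 0.0322), beside 0.685% of all genes. Their median log2 fold change was 0.13, beside 0.04 for all genes. Of the vasopressin and oxytocin genes only Oxtr, the oxytocin receptor, was in the table. It was lower in males, at -4.63 (SE 1.04, edgeR adjusted p = 0.048), beside 0.685% of all genes called lower. Its levels were 0.904, 0.908 and 0.0122 CPM in males 1, 4 and 8 and 4.09, 16.0, 27.7 and 13.7 CPM in females 2, 3, 5 and 6_7. Hsd11b2 and Oxtr passed the count filter only through their female sums, with at most 268 Oxtr reads in a male. These calls are thus no independent evidence of a direction. Against EC-like cells, 5 of the 13 genes were called, beside 22.7% of all genes. Ren1 (renin; log2 fold change 6.45), Agtr2 (the second angiotensin II receptor; 10.25), Mme (neprilysin; 5.09) and Hsd11b2 (9.42) were higher in ASC-like cells, beside 13.9% of all genes, and Prcp, a carboxypeptidase that degrades angiotensin II, was lower (-1.78), beside 8.77%. Genes such as Agtr2, Ren1 and Mme passed the count filter only through their ASC-like sums. Agtr2 had 1 read in EC-like cells, and the EC-like cells of a mouse held at most 8 reads of Ren1 and 89 of Mme. The count of called genes is thus no independent evidence of a direction. Mme was also lower in ASC2-like than in ASC1a-like cells (-1.62, SE 0.47, adjusted p = 0.0377), the 1 gene of the 13 called there, beside 3.47% of all genes and 1.76% called lower.

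Ren1 was at 9.67 CPM over all ASC-like cells, but 47.9% of its 9176 reads came from 1 cell, and Agtr2 was found in 92 of the 2250 cells. Nr3c2, the mineralocorticoid receptor, was at 5.17 CPM in ASC-like cells against 22.1 CPM in EC-like, 36.3 CPM in pericyte-like and 34.9 CPM in VSMC-like cells.

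The genes with the most similar pattern were sought by Pearson correlation of log2(CPM + 1) over 30 sums of subtype or class per mouse, among 12227 genes. The sums share mice and libraries, so the values describe likeness and carry no test. They were 9330159F19Rik (0.87) and Sult1e1 (0.84) for Agt, Col4a5 (0.94) and Slc1a5 (0.93) for Ace, Cxcl1 (0.92) and Arhgap6 (0.91) for Enpep, and Adamtsl5 (0.94) and Pdlim2 (0.93) for Anpep. For the receptors they were Postn (0.96) and Vstm4 (0.96) for Agtr1a, Serpine2 (0.90) and C1qtnf2 (0.88) for Avpr1a, and Hexa (0.81) and Fcgrt (0.78) for Atp6ap2. Among the 7 genes themselves, Agtr1a and Enpep (0.81), Enpep and Anpep (0.80) and Ace and Avpr1a (0.79) had the highest values.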

How the data were processed

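Smart-seq2 libraries of sorted pgWAT cells were analysed from 11 plates and 7 mouse ids. The authors aligned reads with STAR to mm10 plus ERCC spike-ins, quantified genes with Salmon and imported them with tximport, with versions not given in the sources used here, and the unit of the deposited table is a raw count, a whole number of reads for each gene in each cell. The authors had removed low-quality and mixed cells before deposit. All columns mapped to a labelled plate. Cells held 141935 to 3526227 reads in genes, and ERCC rows (1.98% of reads) were left out. Reads carry no molecular identifiers, so intervals cover counting error only.

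Cells were clustered with Seurat 5.3.0 (3000 variable genes, 14 components, resolution 1.1) without the pathway genes, and the 17 clusters were named "X-like" from fixed markers; limits that left 2 clusters (165 cells) unnamed, and the use of CPM outside ribosomal RNA, were chosen after the data were seen. No doublet caller was run. Counts were summed per mouse and class (at least 10 cells), and genes with over 600 counts in at least 2 sums were tested with edgeR 4.0.16 (quasi-likelihood, TMM, two-sided, Benjamini-Hochberg) at the study's limits. Sums of 1 mouse come from the same animal, or animals for 6_7, and the correlation of their deviations was 0.06 to 0.25 for ASC-like and EC-like cells and 0.27 to 0.70 between subtypes. Sex in EC-like cells was not tested, since the EC-like cluster of mouse 1 had none of the fixed EC markers among its leading genes. These leading genes included Apln, Notch4 and Nos3, and the cells stayed in the comparison of ASC-like with EC-like cells. The text names the 7 members, 2 fixed pathway lists and the 2 most similar genes per member. Members and lists were chosen with earlier results of these data known. Genes of these lists that the table did not hold were not analysed here. The result for 1 gene of these lists is not reported here. Alternatives were DESeq2 1.42.0, other scalings, filters, classes and subtype scores, leaving out each mouse, and fits without the block. Figures were drawn with matplotlib 3.10.9, tables were handled with pandas 2.3.3 and numpy 2.4.6 in Python 3.11.15, intervals came from scipy 1.17.1, and tests ran in R 4.3.3. Promoter sequences are from RefSeq, and 6 of the 7 members had one.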

Additional observations from a re-analysis of the deposited data

Results flagged for a closer look

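In 48 groups of 4 female mice (12 genes by subtype or class), 6 held a mouse far from the other 3 by Dixon's ratio, where chance gives about 1 in 20. Agt stood at 41.55 CPM in the ASC1b-like cells of mouse 5 (ratio 0.878), nearly all of it in 1 cell, and at 3.557 CPM in the ASC2-like cells of mouse 2 (ratio 0.925). In this Agt value of mouse 2, 1 cell held 99.3% of the reads. The other 4 were in mouse 6_7: Ren1 at 5.571 CPM in ASC1a-like (0.988) and 107.6 CPM in ASC2-like cells (0.896), Agtr2 at 39.2 CPM in ASC1a-like cells (0.946) and Hsd11b2 at 100.8 CPM in ASC2-like cells (0.83). A single cell held 91.9% and 95.8% of the reads of the Ren1 values and 97.4% of those of the Agtr2 value. These values thus describe single cells more than the mouse.

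The 2 unnamed clusters, which entered no comparison, also carried some of the genes above the limit of 3 reads. The cluster of 115 cells with EC markers and leading adipocyte genes held 22.24 CPM of Agt, 24.35 CPM of Enpep and 41.05 CPM of Atp6ap2, and 0.4216 CPM of Ace, 0.3689 CPM of Agtr1a and 0.2635 CPM of Avpr1a. The cluster of 50 cells with ASC markers and a high mitochondrial share held 101.1 CPM of Enpep, 91.5 CPM of Atp6ap2, 22.46 CPM of Agtr1a, 15.34 CPM of Anpep and 3.069 CPM of Ace.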

How the results depend on the processing

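Of the log2 fold changes of the 7 genes recomputed under alternatives, 627 kept their direction and side of the limits, 10 lost a call, 5 gained one and 16 changed sign; the cause was not tested. All sign changes were in differences that had not passed. They were Atp6ap2 between the sexes under library totals alone (-0.13), and, in ASC1b-like over ASC1a-like cells, Ace without mouse 5 (0.035) and with no replicate block (0.040), Agtr1a with classes from the markers of each cell (-0.055) and without cells rich in other markers (-0.062), and Agt under the likelihood ratio test (-0.19), DESeq2 (-0.23), library totals (-0.028), without mouse 3 (-0.30), mouse 5 (-0.42) or mouse 8 (-0.043), in a range up to 0.35 without mouse 6_7, with classes from the markers of each cell (-0.59), without cells rich in other markers (-0.81), with no block (-0.45), with scores over all ASC-like cells (-0.17) and without cells near a boundary (-0.017). The male excess of Agt missed the limit with a filter of at least 10 counts in at least 2 sums (adjusted p = 0.0525).

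Genes called between the sexes, 264, became 552 with the likelihood ratio test, 594 with DESeq2, 169 with the filter at 10 counts and 92 (without mouse 6_7) to 344 (without mouse 3) when 1 mouse was left out, with 148, 149, 135 and 113 without mice 2, 4, 5 and 8; library totals alone gave 311, of which 87 were higher in males, against 183 of 264. ASC-like against EC-like cells gave 2767, and 2080 to 2729 without 1 mouse. Against mural-like cells, the counts were 0 in the edgeR quasi-likelihood test, with 1373 at an unadjusted p below 0.05, and 1018 with the likelihood ratio test, 1387 with DESeq2 and 44 with library totals; leaving out mouse 1 or 2, classes from the markers of each cell and dropping mixed cells left no residual degrees of freedom and were not run. ASC1b-like over ASC1a-like cells gave 37, and 82 with the likelihood ratio test, 113 with DESeq2, 76 with the study's ASC1b markers, 68 without cells near a boundary, 1 with no replicate block and 18 (without mouse 6_7) to 37 without 1 mouse, with 21 without mouse 2 or mouse 4. The counts of ASC2-like over ASC1a-like and over ASC1b-like cells, 387 and 346, fell to 187 and 129 with no replicate block, and were 282 to 379 and 257 to 343 without 1 mouse. Without the block Agt had -2.96 (adjusted p = 0.692) and -2.51 (adjusted p = 0.797), and Avpr1a -1.62 (adjusted p = 0.574). The interaction of sex and subtype gave 8, and 108 with the likelihood ratio test, 113 with DESeq2 (where Ace passed, adjusted p = 0.0385), 5 with library totals, 0 with the filter at 10 counts, 0 with no replicate block and 0 (without mouse 2 or 3) to 8 (without mouse 4) when 1 mouse was left out. With only the larger EC-like cluster, an alternative chosen after the data were seen, no call of the 7 genes changed. The few cells of the mural, macrophage and epithelial classes limit the precision of their levels.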

Other observations

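The mast cell proteases Cma1 and Mcpt4, which can make angiotensin II without Ace, were at 1297 and 1530 CPM in all macrophage-like cells and at 2.83 and 3.59 CPM in the macrophage-like cells without many markers of another class. A single macrophage-like cell held 99.94% of the Cma1 reads and 99.95% of the Mcpt4 reads of this class in mouse 5. The richest cell of mouse 1 held 39.2% and 48.1% of them. In ASC-like cells Cma1 and Mcpt4 had 53 and 20 reads. Among the macrophage-like cells with few other markers, Ace had 1 read and Agt 2 reads, both in mouse 5.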
